A study of Mus musculus with 12 samples.

Results

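The 10 genes described here carry out triglyceride storage and lipolysis, and they were chosen by name for their roles, 10 of the 26921 genes counted. 3 build triglyceride (Gpam, Dgat1, Dgat2), 3 encode perilipins of the lipid droplet coat (Plin2, Plin4, Plin5), and 4 take it apart or activate its breakdown (Pnpla2, Abhd5, Lipe, Mgll). All 10 were expressed in every library. RNA-seq was performed on left ventricles taken at 16 weeks of age from WT mice (Gch1 flox/flox, n = 6) and from cmGch1 KO littermates (n = 6), which carried the same floxed alleles together with 1 heterozygous Cre transgene under the cardiomyocyte promoter α-MHC. No group with Cre and without floxed alleles was sequenced, so the effects of Cre and of Gch1 loss cannot be told apart. Gch1 encodes GTP cyclohydrolase, which makes the cofactor tetrahydrobiopterin. Because whole ventricle was used, fewer cells of a type and less RNA per cell cannot be told apart in any value below.

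The heart burns mainly fatty acids, and it keeps a small, fast-turning store of them as triglyceride in lipid droplets. Glycerol-3-phosphate acyltransferase begins triglyceride synthesis and diacylglycerol acyltransferases finish it, perilipins cover the droplet and control access to it, and adipose triglyceride lipase, hormone-sensitive lipase and monoacylglycerol lipase release the fatty acids one after another. Fatty acids released in this way fuel mitochondria and also feed ligands to the receptor PPARα.

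Depth was between 22356463 and 37917806 counts per library in WT and between 19921398 and 35480715 in cmGch1 KO, and each of the 10 genes had at least 317 counts in every library. Levels are cpm, counts scaled to the size of each library and by edgeR's TMM factors, and log2 fold changes are cmGch1 KO minus WT with their standard error (SE). Gch1 itself was between 9.27 and 12.1 cpm in WT and between 3.92 and 6.32 cpm in cmGch1 KO, without overlap. Cardiomyocyte markers were abundant, with a sum over 7 genes of 48100 to 53200 cpm in WT and 42600 to 48600 cpm in cmGch1 KO; all 7 were lower and 0 of them passed the test. The 4 macrophage markers were all higher without passing it, although each had an unadjusted p under 0.05 (sums of 76.8 to 95.8 cpm in WT and 95.5 to 116 cpm in cmGch1 KO). Of 3 smooth muscle markers, 1 passed and was higher in cmGch1 KO, and 2 were lower without passing. Among endothelial, fibroblast and atrial markers 0 passed. The atrial markers summed to between 3.92 and 171 cpm in WT and between 22 and 108 cpm in cmGch1 KO. The libraries of cmGch1 KO replicates 2 and 3 stood apart with 86.7 and 99.1 cpm of Xist, no reads of 4 Y-linked genes, and mitochondrial shares of 14.94% and 16.09% against 18.28% to 22.91% elsewhere. Every other library had at most 0.234 cpm of Xist and 167 to 192 cpm over the Y-linked genes. High Xist without Y-linked reads is the pattern of female hearts, and the paper states that both sexes were used. The labels give no sex. No WT library had this pattern, so sex and genotype cannot be fully told apart in comparisons of all 12 libraries. Results of the 10 genes that rest on these 2 cmGch1 KO libraries are also given without them.

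None of the 10 genes differed between genotypes at a false discovery rate (FDR) under 0.05 in edgeR's quasi-likelihood test, in which 126 of 11225 genes (1.12%) did. The DESeq2 Wald test called 1 of them, Dgat2, while edgeR's exact test and limma on the deposited log2 values called 0. Dgat2 came closest in the main test too, with mean levels of 432 ± 27.4 cpm (WT) and 354 ± 37.2 cpm (cmGch1 KO; SD, n = 6). At an unadjusted p under 0.05, 1 of the 10 was lower, beside 4.51% of all genes tested, and 0 were higher, beside 7.01%. In 0 of the 10 were the 6 cmGch1 KO libraries clear of the 6 WT libraries, a separation found in 1.87% of the genes tested. The median log2 fold change of the 10 was -0.06, with 7 lower and 3 higher, against -0.01 over all genes tested, of which 53.3% were lower. By role, the medians were -0.16 for the 3 synthesis genes, -0.09 for the 3 perilipins and -0.02 for the 4 lipolysis genes.

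**Figure D1:**
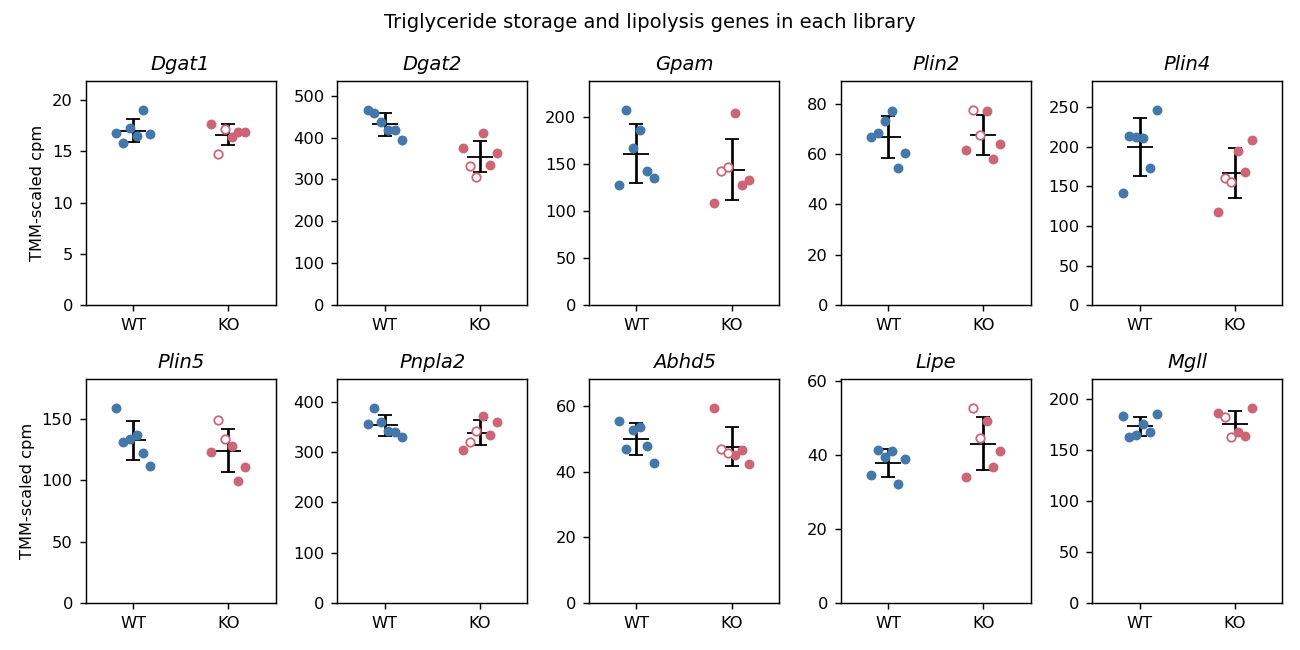
TMM-scaled cpm of the 10 genes (each vertical axis from 0) in 6 WT and 6 cmGch1 KO libraries, 1 point per library, with mean and SD in black; open points are the 2 libraries with high Xist. For Dgat2, 5 of 6 cmGch1 KO points lie below all WT points, and in the other panels the groups overlap more widely.

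To set the genes against each other, levels were divided by the exon length of each gene in kilobases. In WT, Dgat2 was the most abundant at 140 ± 8.88 cpm per kb (SD, n = 6), followed by Pnpla2 at 117 ± 6.67 and Plin5 at 63.4 ± 7.61 cpm per kb. These 3 stood at the 97.3, 96.8 and 94.6 percentiles of all genes tested. Then came Plin4 (34.5 ± 6.36 cpm per kb), Mgll (34.1 ± 1.82), Gpam (24.2 ± 4.71) and Plin2 (19.0 ± 2.38). Abhd5 (8.37 ± 0.815 cpm per kb), Lipe (6.43 ± 0.635) and Dgat1 (5.57 ± 0.355) were the lowest, near the middle of all genes, with Dgat1 at the 52.9 percentile. Neighbours whose WT ranges overlapped were Dgat2 with Pnpla2, Plin4 with Mgll, Gpam with Plin2, and Lipe with Dgat1. In cmGch1 KO the order was the same but for Plin4 and Mgll, which changed places.

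Gpam encodes the mitochondrial acyltransferase that attaches the first fatty acid to glycerol-3-phosphate. It lies on chromosome 19 (GRCm38, 55067268 to 55127238, minus strand). Its level ran from 128 to 207 cpm in WT with a median of 155 cpm, and from 109 to 204 cpm in cmGch1 KO with a median of 138 cpm. The ranges nearly coincided, and 5 of 6 cmGch1 KO libraries were below the WT median. The log2 fold change was -0.16 (SE 0.15; edgeR FDR = 0.786), and with coefficients of variation of 19.5% in WT and 22.3% in cmGch1 KO this was the most variable of the 10 genes. Without WT replicate 2 the log2 fold change was -0.0745 (edgeR FDR = 0.905), and without cmGch1 KO replicate 4 it was -0.29 (FDR = 0.423).

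Dgat1 and Dgat2 encode unrelated enzymes for the same last step, the joining of a fatty acid to diacylglycerol. Dgat2 (chromosome 7, 99153658 to 99182719, minus strand) was between 394 and 465 cpm in WT with a median of 427 cpm. In cmGch1 KO it was between 306 and 411 cpm with a median of 349 cpm. All 6 cmGch1 KO libraries were below the WT median and 5 were below every WT library; the sixth, replicate 4, had 411 cpm. The log2 fold change was -0.29 (SE 0.08; 95% interval -0.45 to -0.12), with an unadjusted p = 0.00214 and an FDR = 0.112 by edgeR. An exact permutation test of the cpm alone, two-sided over all 924 splits, gave p = 0.00433, where 0.00216 is the smallest p this design allows. The 2 libraries with high Xist, at 332 and 306 cpm, were the lowest of all. Without them the log2 fold change was -0.22 (edgeR FDR = 0.504). The summed cardiomyocyte markers were also lower in cmGch1 KO, as given above, and their part in the Dgat2 difference was not tested. The study itself lists Dgat2 among its fatty acid metabolism genes, drawn from genes it called in these samples with edgeR at an FDR under 0.05. The log fold change it gives for Dgat2 is nearly the same as the one here. The main test here did not call Dgat2, and the reason for this difference in the call was not tested. Both rest on the same samples, so the direction of Dgat2 here is not independent evidence.

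Dgat1 (chromosome 15, 76502015 to 76511953, minus strand) showed no such difference. It was between 15.8 and 19.0 cpm in WT (median 16.8 cpm) and between 14.7 and 17.7 cpm in cmGch1 KO (median 16.9 cpm). The log2 fold change was -0.03 (SE 0.07; edgeR FDR = 0.927), with a 95% interval from -0.18 to 0.11. The libraries of the 2 genotypes were intermixed.

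**Figure D2:**
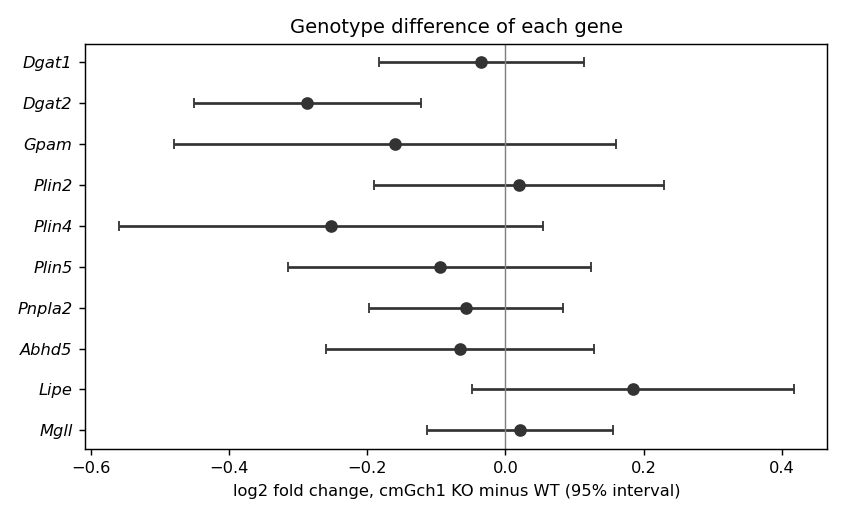
Log2 fold change of each gene, cmGch1 KO minus WT, with its 95% interval from the edgeR fit; the vertical line marks 0. The interval of Dgat2, -0.45 to -0.12, lies wholly below 0, and those of the other 9 genes include 0.

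The perilipins differ in where they sit. Plin2 is found in most cells with droplets, Plin5 is the perilipin of oxidative tissue and binds both the lipase Pnpla2 and its co-activator Abhd5, and Plin4 is a coat protein of small droplets in fat and muscle. Plin4 (chromosome 17, 56100591 to 56109803) and Plin5 (chromosome 17, 56111601 to 56117596) are neighbours on the minus strand, 1797 bases apart, so the start regions of both are shown for a reader to compare. Each run below is 300 bases from RefSeq (GRCm38.p6), from 250 bases before a start site to 50 after it, and written 5′ to 3′ on the gene's own strand. Capitals mark matches on either strand to AGGTCA, the core motif of nuclear receptors that PPAR dimers read in pairs, to the E-box CACGTG, and to the GC box GGGCGG, which appears as CCGCCC on the other strand.
Plin4, chr17:56109733-56110032: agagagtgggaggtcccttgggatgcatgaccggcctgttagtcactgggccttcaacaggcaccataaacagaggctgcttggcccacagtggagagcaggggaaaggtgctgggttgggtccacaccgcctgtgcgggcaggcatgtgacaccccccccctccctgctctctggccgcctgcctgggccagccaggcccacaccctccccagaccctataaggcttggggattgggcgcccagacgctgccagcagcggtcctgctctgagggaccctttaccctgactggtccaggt
Plin5, first of 2 listed start sites, chr17:56117499-56117798: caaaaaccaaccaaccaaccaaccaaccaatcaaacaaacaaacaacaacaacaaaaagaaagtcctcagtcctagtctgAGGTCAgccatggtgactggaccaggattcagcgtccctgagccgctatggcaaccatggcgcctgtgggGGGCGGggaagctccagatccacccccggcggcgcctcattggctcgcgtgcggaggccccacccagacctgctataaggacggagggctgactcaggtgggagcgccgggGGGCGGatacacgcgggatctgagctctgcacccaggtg
The Plin4 window held none of the 3 motifs and the Plin5 window held 1 receptor motif and 2 GC boxes. Among all 32851 RefSeq windows of this length, 16.3% held the receptor motif, 7.2% an E-box and 35.7% a GC box. A match is only a match of letters, and its absence says nothing about any factor.

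Plin4 was between 141 and 246 cpm in WT with a median of 211 cpm, and between 118 and 208 cpm in cmGch1 KO with a median of 164 cpm. All 6 cmGch1 KO libraries lay below the WT median, but only 1 was below every WT library. With a log2 fold change of -0.25 (SE 0.14; 95% interval -0.56 to 0.05) the difference did not pass the test (edgeR FDR = 0.557; exact permutation p = 0.13). Plin5 was between 112 and 159 cpm in WT (median 132 cpm) and between 99.5 and 149 cpm in cmGch1 KO (median 125 cpm), with a log2 fold change of -0.09 (SE 0.10; edgeR FDR = 0.825). Its groups overlapped over most of their range. Without the 2 libraries with high Xist the log2 fold change was -0.20 (edgeR FDR = 0.812), and without WT replicate 1 it was -0.0356 (FDR = 0.941).

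Plin2 (chromosome 4, 86648386 to 86670060, minus strand), whose protein follows the amount of stored lipid in many cells, was between 54.3 and 77.3 cpm in WT (median 67.6 cpm) and between 58.1 and 77.4 cpm in cmGch1 KO (median 65.8 cpm). The 2 ranges were almost the same, and the log2 fold change was 0.02 (SE 0.10; edgeR FDR = 0.976). Its sign turned to -0.04 without the 2 libraries with high Xist. These are levels of RNA and not of protein. The study itself measured more triacylglycerol in cmGch1 KO heart tissue than in WT, and how Plin2 RNA relates to that was not tested.

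Pnpla2 encodes adipose triglyceride lipase, which makes the first cut in triglyceride, and Abhd5 its co-activator. Pnpla2 (chromosome 7, 141455198 to 141460743, plus strand) was between 331 and 388 cpm in WT (median 349 cpm) and between 305 and 372 cpm in cmGch1 KO (median 338 cpm). Abhd5 (chromosome 9, 122351608 to 122381524, plus strand) was between 42.5 and 55.3 cpm in WT (median 50.4 cpm) and between 42.3 and 59.4 cpm in cmGch1 KO (median 46.1 cpm). Neither differed beyond the spread between libraries. The log2 fold changes were -0.06 (SE 0.07; edgeR FDR = 0.838) for Pnpla2 and -0.07 (SE 0.09; edgeR FDR = 0.876) for Abhd5. The 59.4 cpm of Abhd5 was in cmGch1 KO replicate 1, and the other 5 were between 42.3 and 46.9 cpm.

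Lipe encodes hormone-sensitive lipase, which cuts diacylglycerol, and Mgll monoacylglycerol lipase, which makes the last cut. Lipe (chromosome 7, 25379527 to 25398710, minus strand) was between 32.0 and 41.2 cpm in WT with a median of 39.1 cpm, and between 34.1 and 52.6 cpm in cmGch1 KO with a median of 42.8 cpm. 3 of the 6 cmGch1 KO libraries, among them both with high Xist, were above every WT library, while the other 3 were within the WT range. The log2 fold change was 0.18 (SE 0.11; 95% interval -0.05 to 0.42) and did not pass the test (edgeR FDR = 0.579). It was 0.088 (FDR = 0.998) without the 2 libraries with high Xist and 0.11 (FDR = 0.868) without cmGch1 KO replicate 2 alone. Mgll (chromosome 6, 88724412 to 88828360, plus strand) was between 163 and 185 cpm in WT and between 163 and 191 cpm in cmGch1 KO, with medians of 171 and 175 cpm. Its log2 fold change of 0.02 had the smallest SE of the 10 genes, 0.06 (edgeR FDR = 0.954), and a 95% interval from -0.11 to 0.16.

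Antisense genes overlap Abhd5, Lipe and Mgll (15.95%, 15.6% and 3.29% of their exon bases). None of these antisense genes was above 0.333 cpm in any library. Hdgfl2, a protein-coding gene on the other strand with 40.0 to 58.4 cpm, shares 17 exon bases (0.29%) with Plin4. The strand setting of the counting is not given in the sources used here, so their reads cannot be fully separated.

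Ratios within a library do not depend on how libraries are scaled, and 4 were compared. Dgat2 over Dgat1 had a mean log2 ratio of 4.66 ± 0.15 (SD, n = 6) in WT and 4.40 ± 0.17 in cmGch1 KO, with 4 of 6 cmGch1 KO libraries below every WT library. The difference of -0.26 had an exact permutation p = 0.0195, and 0.0584 after adjustment over the 3 ratios of single genes, which does not pass. Adjusted over all 4 ratios it was 0.039, and that value also rests on the p of the fourth, a mean over genes chosen by name. Without the 2 libraries with high Xist the difference was -0.22 with an exact permutation p = 0.105 adjusted over 4. With single libraries left out, the p adjusted over 4 stayed under 0.05 only without WT replicate 5, WT replicate 6 or cmGch1 KO replicate 4, and leaving out any of the other 9 libraries brought it over 0.05.

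Pnpla2 over Abhd5, the lipase against its co-activator, had mean log2 ratios of 2.83 ± 0.15 in WT and 2.84 ± 0.26 in cmGch1 KO (SD, n = 6; exact permutation p = 0.944). Plin5 over Plin2 had 0.99 ± 0.18 in WT and 0.87 ± 0.12 in cmGch1 KO (SD, n = 6; difference -0.12, exact permutation p = 0.216, adjusted p = 0.289 over the 4 ratios). In neither did the difference exceed the spread between libraries. The mean log2 level of the 3 synthesis genes minus that of the 4 lipolysis genes was between -0.08 and 0.13 in WT and between -0.30 and 0.04 in cmGch1 KO. 5 of 6 cmGch1 KO libraries lay below every WT library, and no p is given for this mean because its genes were chosen by name. Its difference between genotypes was -0.18, and -0.14 without the 2 libraries with high Xist, 1 of which had the lowest value of all.

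**Figure D3:**
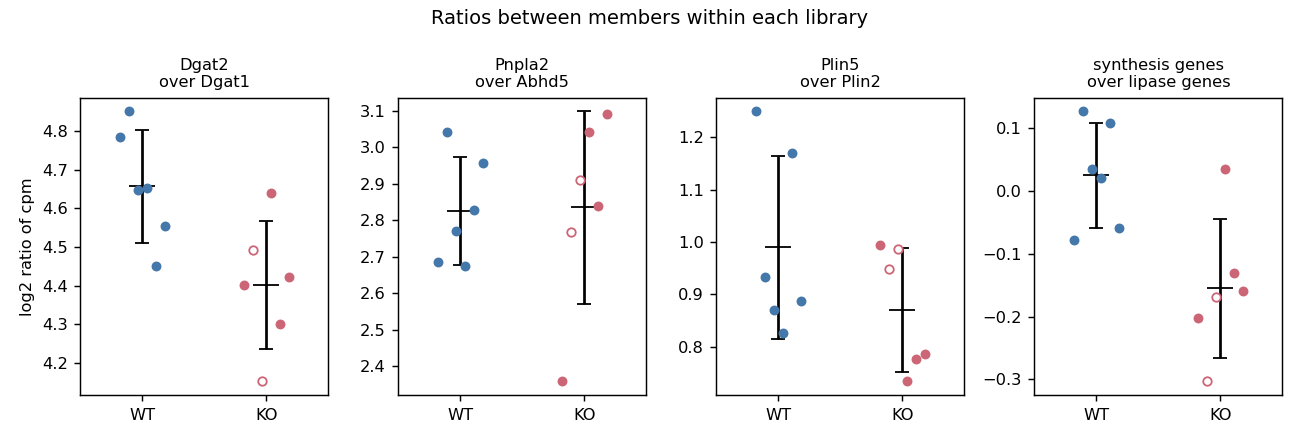
Log2 ratios of cpm within each library for 3 pairs of genes and for the mean of the synthesis genes over the mean of the lipolysis genes, with mean and SD in black (n = 6 per genotype); open points are the 2 libraries with high Xist. Dgat2 over Dgat1 averages 4.66 in WT and 4.40 in cmGch1 KO, and Pnpla2 over Abhd5 2.83 and 2.84; vertical axes do not start at 0.

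Variation among animals of 1 genotype was also compared between genes, by correlating log2 cpm over the 12 libraries after the mean of each genotype had been removed. Of 45 pairs, 3 had a permutation p of Pearson's r under 0.05 after Benjamini-Hochberg adjustment over the pairs. Plin2 and Lipe, a coat protein and a lipase, varied together (r = 0.83, Spearman's rho = 0.84, adjusted permutation p = 0.0351 and 0.0445). Dgat1 varied opposite to Lipe (r = -0.79, rho = -0.80, adjusted permutation p = 0.0351 and 0.0498), and Plin4 opposite to Abhd5 (r = -0.79, rho = -0.76, adjusted permutation p = 0.0351 and 0.0712). Without the 2 libraries farthest from the median of the first gene, r was 0.74, -0.64 and -0.48, and none of the 3 passed the adjusted test. For Plin4 with Abhd5 those libraries were WT replicate 1 and cmGch1 KO replicate 1, which share a replicate number. Leaving out the extremes of a gene narrows its range, which can by itself weaken r. This setting therefore cannot decide whether a relation rests on those libraries. WT and cmGch1 KO libraries with the same replicate number had similar levels of several of these genes (r over 6 numbers 0.89 for Lipe, 0.85 for Plin4 and 0.77 for Plin2), so the 12 libraries may not be independent. Over the 6 means of each number, a setting added after the data were seen, r was 0.86, -0.82 and -0.90, and 0 of 45 pairs passed (adjusted exact permutation p = 0.271 for all 3). The smallest exact permutation p that 6 means allow is 0.00139 before adjustment. A single pair could therefore not pass on its own after adjustment over 45 pairs, and this setting cannot decide whether the relations hold. Plin4 and its neighbour Plin5 had r = -0.46 (rho = -0.45, adjusted permutation p = 0.413 and 0.367), and Dgat1 and Dgat2 had r = -0.03 (rho = -0.04, adjusted permutation p = 0.931 and 0.946).

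The start regions of Plin2 and Lipe, the pair that varied together, are given in the same form as those of Plin4 and Plin5.
Plin2, chr4:86670010-86670309: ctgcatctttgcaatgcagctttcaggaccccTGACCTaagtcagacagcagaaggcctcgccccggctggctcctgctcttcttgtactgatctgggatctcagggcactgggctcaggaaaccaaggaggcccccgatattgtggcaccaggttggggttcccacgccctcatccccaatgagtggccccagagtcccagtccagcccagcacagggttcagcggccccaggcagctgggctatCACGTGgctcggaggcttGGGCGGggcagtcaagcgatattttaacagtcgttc
Lipe, first of 2 listed start sites, chr7:25395938-25396237: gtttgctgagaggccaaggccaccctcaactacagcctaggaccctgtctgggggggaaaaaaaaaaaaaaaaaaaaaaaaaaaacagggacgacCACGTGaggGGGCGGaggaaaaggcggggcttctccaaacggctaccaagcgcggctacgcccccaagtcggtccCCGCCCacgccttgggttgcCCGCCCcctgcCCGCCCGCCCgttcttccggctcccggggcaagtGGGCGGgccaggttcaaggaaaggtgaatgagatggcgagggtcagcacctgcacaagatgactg
Both held 1 E-box. Plin2 also held 1 receptor motif and 1 GC box, while Lipe held no receptor motif and 6 GC boxes, of which the adjoining matches share bases. The window of the second Lipe start site held none of these motifs. The E-box was not particular to this pair. The window of the first Mgll start site also held 1, and Mgll had r = -0.05 with Plin2 and -0.13 with Lipe. Any part of the E-box in the co-variation was not tested. Windows were found for 8 of the 10 genes, not for Dgat1 and Dgat2.

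**Figure D4:**
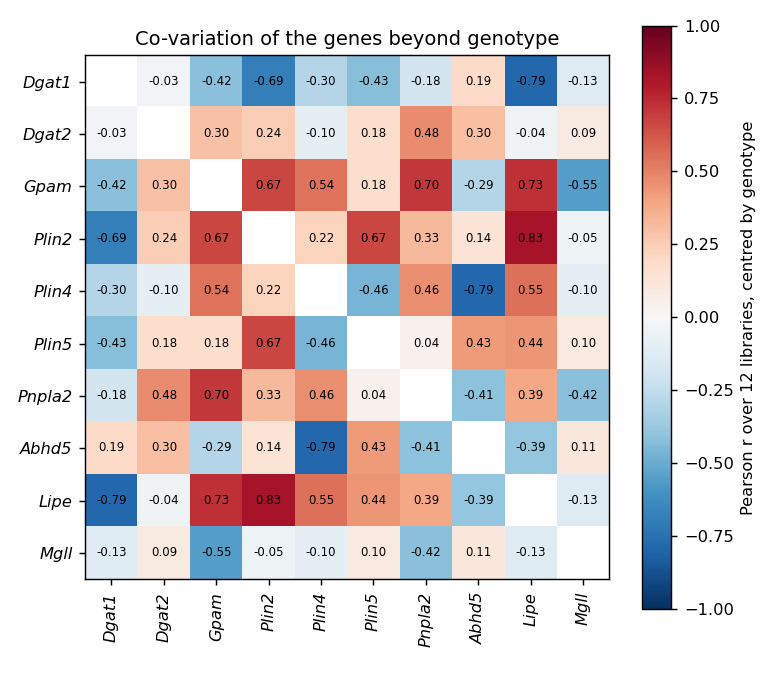
Pearson's r between each pair of the 10 genes over 12 libraries, on log2 cpm with the mean of each genotype removed; red is positive and blue negative, and genes run from synthesis through coat to lipolysis. Plin2 with Lipe (0.83) is the highest value, and Dgat1 with Lipe and Plin4 with Abhd5 (both -0.79) are the lowest.

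By likeness of log2 cpm over all 12 libraries, given as a description, the genes nearest to Dgat2 were Clpb (r = 0.94), Gpt (r = 0.94) and Ldhd (r = 0.93). Of these, Gpt, an alanine aminotransferase, was lower in cmGch1 KO (log2 fold change -0.31, SE 0.07, edgeR FDR = 0.0417). Genotype means were not removed for this likeness, so it favours genes that differ between genotypes in the same direction as Dgat2. Nearest to Plin4 were Zhx3 (r = 0.97), Klf9 (r = 0.96), a transcription factor induced by glucocorticoids, and Timp3 (r = 0.94). None of these 3 passed the test between genotypes, with edgeR FDR values from 0.534 to 0.826.

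Other genes of the pathway were examined as lists of known members. Of 16 other genes of triglyceride synthesis, 13 were tested and 0 passed, nor had any an unadjusted p under 0.05 (median log2 fold change 0.01; 6 lower, 7 higher). The smallest p values were those of Lpin1, which makes the diacylglycerol that the Dgat enzymes use (155 to 234 cpm in WT, 147 to 200 cpm in cmGch1 KO; log2 fold change -0.22, edgeR FDR = 0.454), of Gpat4, a second glycerol-3-phosphate acyltransferase (-0.10, FDR = 0.588), and of Gk, glycerol kinase (0.10, FDR = 0.606). In this list and the next 3, the DESeq2 Wald test, edgeR's exact test and limma also called 0 genes.

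Of 13 other genes of the droplet coat and its assembly, 9 were tested and 0 passed (median 0.00; 4 lower, 5 higher). With the threshold at an unadjusted p of 0.05, 2 lay lower and 2 higher. Those with the smallest p were Cidea, which acts in droplet fusion (26.4 ± 2.79 cpm in WT, 31.3 ± 3.56 in cmGch1 KO; SD, n = 6; log2 fold change 0.24, edgeR FDR = 0.286), Bscl2, which encodes seipin of the droplet's budding site (0.20, FDR = 0.339), and Fitm1, a fat storage-inducing protein of muscle (-0.32, FDR = 0.402). Their directions were mixed. Cidea was highest in the 2 libraries with high Xist, at 37.1 and 33.5 cpm.

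Of 16 genes of lipolysis and its control, 15 were tested and 0 passed (median -0.01; 8 lower, 7 higher), and 1, Lipa, had an unadjusted p under 0.05. Lipa, the lysosomal acid lipase, was between 24.9 and 27.7 cpm in WT and between 27.3 and 30.5 cpm in cmGch1 KO (log2 fold change 0.14, edgeR FDR = 0.36). G0s2, the inhibitor of Pnpla2, had 48.7 ± 16.4 cpm in WT and 36.4 ± 8.60 in cmGch1 KO (SD, n = 6; -0.42, FDR = 0.503), with all 6 cmGch1 KO libraries below the WT median. Gpihbp1, which carries lipoprotein lipase to the capillary wall, had a log2 fold change of -0.23 (FDR = 0.629).

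Among 16 transcription factors of lipid genes 0 passed (median -0.10; 11 lower, 5 higher), and 3 lower genes and 1 higher gene had an unadjusted p under 0.05. Klf15, a glucocorticoid-responsive regulator of cardiac lipid use, was between 48.2 and 86.1 cpm in WT and between 30.4 and 68.2 cpm in cmGch1 KO (log2 fold change -0.55, SE 0.20, edgeR FDR = 0.256). Its lowest values, 30.4 and 30.8 cpm, were in the 2 libraries with high Xist. Srebf2, the regulator of sterol synthesis, had a log2 fold change of 0.18 (FDR = 0.388) and Rxrg, a partner of PPARs, -0.22 (FDR = 0.428). Among 11 PPAR-responsive genes of the heart 0 passed in the main test (median -0.10; 7 lower, 4 higher), and 2 lower genes had an unadjusted p under 0.05. The DESeq2 Wald test and edgeR's exact test each called 1, Acot1, and limma 0. Acot1, a cytosolic acyl-CoA thioesterase, came closest with 21.6 ± 4.31 cpm in WT and 13.1 ± 3.19 in cmGch1 KO (SD, n = 6; log2 fold change -0.73, FDR = 0.0644). It was followed by Slc25a20, the carnitine-acylcarnitine carrier (-0.22, FDR = 0.428), and Fabp3, the fatty acid binding protein of heart (-0.20, FDR = 0.54).

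Several of the 10 genes are also strongly expressed in fat, so 9 adipocyte markers were read in the same libraries. Only Cidea passed the filter on low values. Adipoq, the adipokine that defines fat cells, was between 0.0276 and 1.31 cpm, Plin1, the perilipin of adipocytes, between 0.138 and 1.16 cpm, and Cidec between 0.0456 and 1.42 cpm. Cfd reached 6.36 cpm in 1 WT library and lay between 0.221 and 5.6 cpm in cmGch1 KO, while Lep, Retn, Adrb3 and Ucp1 were at most 0.139, 0.516, 0.417 and 0.029 cpm. The summed adipocyte markers, most of them Cidea, were between 24.2 and 39.2 cpm in WT and between 28.5 and 46.2 cpm in cmGch1 KO. Apart from Cidea and Cfd, the adipocyte markers were at most 1.42 cpm in any library. Plin4 was at 118 cpm or more and Dgat2 at 306 cpm or more in every library. What share of their reads came from fat cells was not tested.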

How the data were processed

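RNA-seq of 12 left ventricles, 6 WT and 6 cmGch1 KO, was analysed; genotypes and replicate numbers came from the sample labels. The authors deposited raw counts per gene, obtained with featureCounts after HISAT2 and Picard from paired-end reads of dUTP (stranded) libraries. The submitters' processing notes also name SAMtools and GRCm38; annotation and strand setting are not given in the sources used here. They also deposited normalized values on a log2 scale, by a tool not named there, which served as an alternative. Symbols and coordinates were taken from GENCODE M21, which held 26582 of the 26921 identifiers.

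Counts were TMM-normalized in edgeR 4.0.16 (R 4.3.3). Genes were kept where 6 or more libraries exceeded 3 cpm (11225 genes) and fitted on genotype by glmQLFit and glmQLFTest, with Benjamini-Hochberg adjustment over all of them and an FDR threshold of 0.05. Co-variation was also computed over the 6 means of each replicate number, added after the data were seen. The procedure was tested on simulated data. Single values were tested by exact permutation over 924 splits, two-sided, and correlations by 100000 permutations (log2 cpm, prior count 2). No pair of libraries of 1 genotype was a copy of another (chi-square per degree of freedom 13.4 or more over 30 pairs). A count of 0 allows at most 3 counts, 0.0791 to 0.151 cpm per library, for counting error only.

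Genes were named by 1 rule: Gch1, the 10 genes, pathway genes passing the test with the 3 of smallest p per list, all adipocyte markers, and the 3 genes most like each of the 2 members of smallest p. Pdk4 and Ucp3 fell outside this rule and were chosen after their values had been seen. Pathway lists were summarised by counts and medians without a set test. The 10 genes, the lists and the tests were chosen with earlier results of these data known. Alternatives were other normalizations, filters, covariates and tests (DESeq2 1.42.0, limma 3.58.1, sva 3.50.0) and leaving out libraries.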

Additional observations from a re-analysis of the deposited data

Results flagged for a closer look

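Of 30 groups of 6 values examined for a single library far from the rest, 1 stood out, where chance alone marks about 1 in 20 groups. Abhd5, the co-activator of adipose triglyceride lipase, had 59.4 cpm in cmGch1 KO replicate 1, and the nearest of the other cmGch1 KO libraries had 46.9 cpm. That gap was 0.729 of the range of the group, above Dixon's 95% critical value for 6 samples. The same library also had the lowest Plin4 level, 118 cpm, and the lowest Pnpla2 level, 305 cpm.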

How the results depend on the processing

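The 10 genes were refitted under 24 alternatives. Dgat2 was lower in cmGch1 KO in all 24, with log2 fold changes from -0.33 to -0.22 and adjusted p values from 0.0109 to 0.504. It passed the threshold in 2, so that 1 of the 10 genes was called in place of 0: by the DESeq2 Wald test (-0.29, adjusted p = 0.0109), where 373 of all genes were called, and in edgeR with 1 surrogate variable (-0.29, adjusted p = 0.0294), where 636 were called. With sex-linked expression as a covariate 64 of all genes were called, and 34 without the 2 libraries with high Xist. Gpam (-0.2851 to -0.0745), Plin4 (-0.3345 to -0.1706), Plin5 (-0.2025 to -0.0155) and Lipe (0.088 to 0.2664) kept their direction in all 24 alternatives and were called in 0. Scaling by library size alone shifted the median of all genes to 0.07 and turned Dgat1 to 0.0386, Pnpla2 to 0.0179 and Abhd5 to 0.0067, and the median of the 10 to 0.0123. Plin2 turned to -0.025 with sex-linked expression as a covariate, to -0.0352 without the libraries with high Xist, and below 0 without WT replicate 5, WT replicate 6, cmGch1 KO replicate 2 or cmGch1 KO replicate 4, within a range of -0.0339 to 0.0658 over the 12 libraries left out in turn. Mgll ran from -0.0072, without cmGch1 KO replicate 6, to 0.0404 over the libraries left out, and reached 0.0958 with library size alone.

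Dgat2 over Dgat1 passed only where p was adjusted over all 4 ratios (0.039), not over the 3 ratios of single genes (0.0584). Adjusted over 4, it did not pass without the libraries with high Xist (-0.22, exact permutation p = 0.105), nor in 9 of 12 cases with single libraries left out, where it ran from -0.30 to -0.21. Pnpla2 over Abhd5, near 0 throughout, ran from -0.0426 to 0.1043 and was below 0 in 6. Without the libraries with high Xist the correlations were 0.80 for Plin2 with Lipe, -0.73 for Dgat1 with Lipe and -0.82 for Plin4 with Abhd5; without the 2 farthest libraries they were 0.74, -0.64 and -0.48; over the 6 means of each replicate number they were 0.8557, -0.824 and -0.9044. None of these values passed the adjusted test. These settings use fewer values, and the cause was not tested further. Over the means of each replicate number a single pair could not pass on its own, as given above. With library size alone Dgat1 with Lipe did not pass (-0.53), while Plin2 with Lipe (0.87) and Plin4 with Abhd5 (-0.85) did (adjusted permutation p = 0.00967 for both).

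Whether equal replicate numbers pair the libraries is not settled. The labels give no shared litter, batch or day. Over all genes tested, deviations from the genotype means correlated over 0.1 in 3 of 6 numbers (0.68, 0.40 and 0.51 for numbers 1, 5 and 6; -0.10, -0.08 and -0.13 for the others), and 5 of 12 libraries correlated best with their own number. For single genes the likeness was closer (r between genotypes over the 6 numbers 0.99 for Pdk4, 0.97 for Ucp3, 0.89 for Lipe, 0.85 for Plin4, -0.22 for Dgat2). The planned fit has no pairing. The fit with a replicate block called 0 of the 10 genes and 188 of all genes in place of 126, with a median of -0.06 for the 10 and Dgat2 at -0.29 (adjusted p = 0.0961). Plin4, lower in cmGch1 KO in 6 of 6 numbers, was at -0.25 with an adjusted p of 0.104 in place of 0.557.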

Other observations

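Pdk4 and Ucp3, genes that rise with fatty acid supply through PPARs and vary widely between animals, were set against the 10 genes after their values had been seen. Both are among the 11 PPAR-responsive genes given above, and the others were not set against the 10 genes. Angptl4, one of those others, had coefficients of variation of 40.8% in WT and 60.7% in cmGch1 KO, against 37.7% and 49.8% for Pdk4. Pdk4, the kinase that closes pyruvate dehydrogenase, ranged from 257 to 833 cpm in WT and from 207 to 1050 cpm in cmGch1 KO. Ucp3, a mitochondrial carrier, ranged from 28.4 to 115 cpm and from 22.2 to 154 cpm. On log2 cpm with the mean of each genotype removed (n = 12 libraries), 7 of 20 relations had a permutation p of r under 0.05 after adjustment over the 20. Plin2 varied with Ucp3 (r = 0.91, rho = 0.91, adjusted permutation p = 0.0012 and 0.0016) and with Pdk4 (r = 0.81, rho = 0.82, adjusted permutation p = 0.00635 and 0.00865). Lipe varied with Pdk4 (r = 0.88, rho = 0.83, adjusted permutation p = 0.00133 and 0.0082) and with Ucp3 (r = 0.88, rho = 0.93, adjusted permutation p = 0.00133 and 6e-04). Without the 2 libraries farthest from the median of Pdk4 or Ucp3, r was 0.91 for Plin2 with Ucp3, 0.66 for Plin2 with Pdk4, and 0.88 and 0.87 for Lipe. Without the libraries with high Xist these 4 values lay between 0.81 and 0.91. Pdk4 and Ucp3 were alike in WT and cmGch1 KO libraries of the same replicate number (r = 0.99 and 0.97 over 6 numbers), so the 12 libraries may not be independent and the p values above may be too small. Over the 6 means of each number, 1 of the 20 relations passed, Plin2 with Ucp3 (r = 0.99, rho = 1, adjusted exact permutation p = 0.0278 and 0.0556). That 0.0278 is the lowest adjusted p a single relation can reach over 6 means. As rho cannot exceed 1, no single relation could pass by rho alone. Lipe had r = 0.92 with Pdk4 and 0.89 with Ucp3 (rho = 0.89 for both, adjusted exact permutation p of r = 0.102 for both).

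Gpam followed the same way (r = 0.69 with Pdk4 and 0.74 with Ucp3, rho = 0.73 and 0.75, adjusted permutation p of r = 0.0433 and 0.0248), and Dgat1 went opposite to Ucp3 (r = -0.67, rho = -0.71, adjusted permutation p of r = 0.0466). Without the 2 farthest libraries these were 0.81, 0.70 and -0.83. For Dgat2, the gene nearest to a genotype difference, r was 0.11 with Pdk4 and 0.23 with Ucp3 (rho = 0.08 and 0.13, adjusted permutation p of r = 0.851 and 0.591), and for Mgll 0.08 and -0.08 (rho = 0.00 and -0.21, adjusted permutation p of r = 0.851 for both). Feeding state, time of sampling and position in the ventricle are not in the labels, and their part in this variation was not tested.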
